A study of Mus musculus with 9 samples.

Results

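The ZIP family zinc importers are the membrane carriers encoded by the Slc39a genes. The set described here held 10 of the 16509 genes in the deposited expression table, chosen by gene symbol: Slc39a1, Slc39a3, Slc39a4, Slc39a6, Slc39a7, Slc39a8, Slc39a10, Slc39a11, Slc39a13 and Slc39a14. All 10 were found and all 10 passed the filter on low counts, among 11949 genes tested. The 9 RNA-seq libraries, 3 per group, came from the MC38 line of mouse colon carcinoma cells. Ctrl cells received vehicle, given as DMSO in the sample labels and as PBS in the study's text. Cu-Cys cells received the coordination product of copper and cystine, and Cadict cells received a nanodrug that joins copper and cystine with glucose oxidase, which consumes glucose, and with the EGFR-binding peptide GE11. The table columns abbreviated CCGE were read as Cadict from these components, which is an inference. No dose or time was given for the RNA samples. The study describes its replicates in general as biological, while the labels do not say which libraries came from separate cultures, and p-values measure the spread between these libraries. Library totals lay between 17905771 and 18293056 expected counts (read counts estimated per gene). Cadict replicate 2 stood apart from the other Cadict libraries, with a chi-square per degree of freedom over genes of 14.2 and 22.4 against them, where that pair gave 3.55 and pairs within Ctrl and Cu-Cys gave 1.88 to 4.47. Without it the calls of Slc39a10, Slc39a3 and Slc39a4 against Ctrl stood, at log2 fold changes of -2.15, -1.66 and 2.70.

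ZIP carriers move zinc into the cytosol, from outside the cell or from internal stores, and ZnT carriers of the Slc30a family move it the other way. Metallothioneins bind zinc and copper in the cytosol, and the zinc-sensing factor MTF1 switches on metallothionein genes and the exporter gene Slc30a1 when free zinc rises. MTF1 is also known to repress Slc39a10 in mouse cells. Several ZIP proteins carry iron, manganese or cadmium as well as zinc, while copper enters cells mainly through the separate carrier Slc31a1.

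In Ctrl cells the intracellular carrier Slc39a7, which releases zinc from the endoplasmic reticulum, had the highest level per length of transcript of the 10 genes. Its deposited TPM (a transcript level scaled by length and library) was 152.7 ± 6.18 (SD, n = 3). Next in TPM came Slc39a1 at 83.5 ± 2.58, a broadly expressed importer of the plasma membrane, and Slc39a6 at 54.9 ± 1.80, a plasma membrane importer of the LIV-1 branch. Slc39a13, a carrier of the early secretory pathway, stood at 34.8 TPM. The zinc, iron and manganese carrier Slc39a14 stood at 29.4 TPM, Slc39a11 of the Golgi at 21.5 and Slc39a10 at 20.8. The plasma membrane importer Slc39a3 was at 12.2 TPM, and the last positions were held by Slc39a8, which carries zinc and manganese, at 0.83 and by Slc39a4, the importer for dietary zinc in intestine, at 0.50. Neighbours in this order had libraries that did not overlap, except Slc39a11 and Slc39a10, whose TPM values overlapped. Slc39a4 rested on 7 to 13 counts per Ctrl library and Slc39a8 on 23 to 29, whereas each of the other 8 members had at least 428 counts in every Ctrl library.

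**Figure D1:**
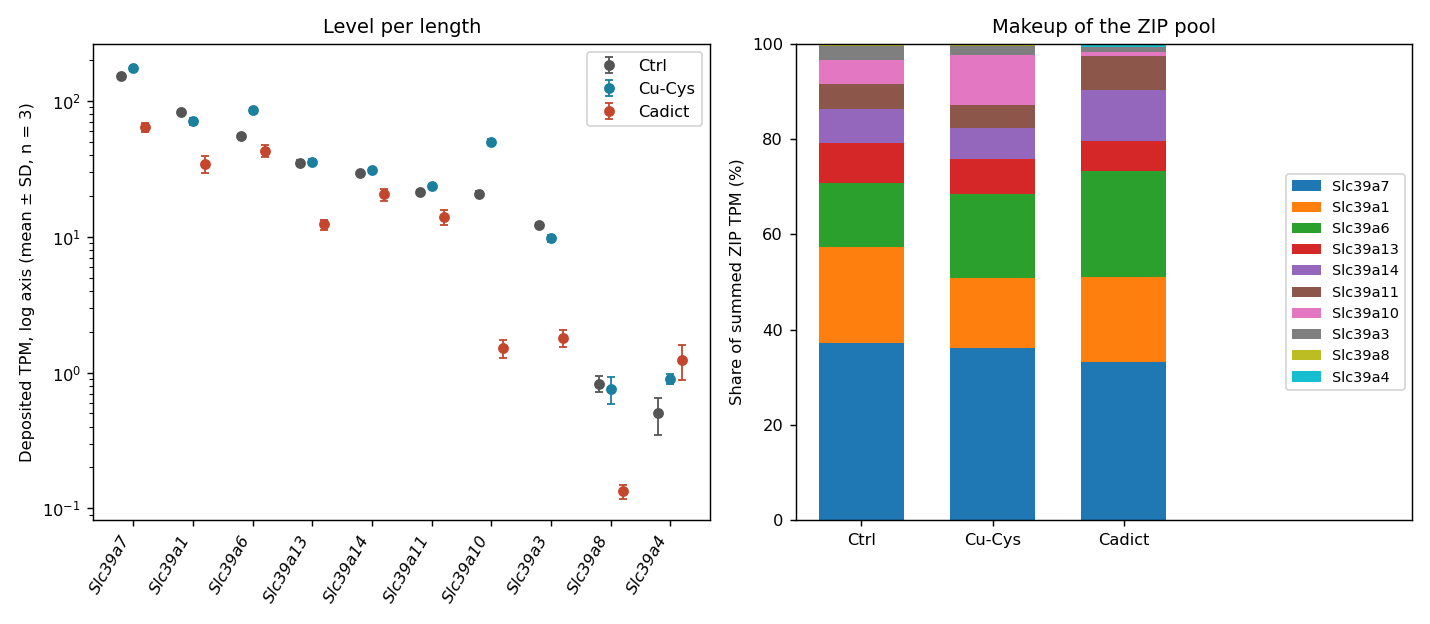
Left, the deposited TPM of each ZIP gene (log axis) in Ctrl, Cu-Cys and Cadict cells, with points for the mean and bars for the SD over 3 libraries. Right, the mean share of each gene in the summed TPM of the 10 genes (%), where Slc39a10 makes up 5.06% in Ctrl, 10.4% in Cu-Cys and 0.783% in Cadict cells.

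Because zinc-responsive genes carry metal response elements, the sites read by MTF1, promoters were searched for the core letters TGCACNC or TGCGCNC on both strands. The windows ran from 250 bases before to 50 after each start in RefSeq on GRCm38.p6. Promoters of 7 of the 10 members matched the table by symbol, and those of Slc39a4, Slc39a6 and Slc39a14 were not analysed here. The core stood in 25.7% of all 32851 promoters, counted by window, so a match by itself is common. Members are counted by gene, and Slc39a8, Slc39a10 and Slc39a11 had 2 windows each, so their count cannot be set directly beside that percentage. The core stood in a window of 4 of the 7 members: Slc39a3, Slc39a8, Slc39a11 and Slc39a13. Stretches of 25 bases around these cores are shown beside those of Slc30a1 and Mt1, the exporter and metallothionein genes described further on, as an account of where the letters occur in genes that moved in different directions. Capitals mark the core or its reverse complement.
Slc39a3, chr10:81037444-81037468, minus strand: tttggtagcTGCACTCatgtttaga
Slc39a8, chr3:135825629-135825653, plus strand: atctctaaaGGGTGCAgggcctgat
Slc39a11, chr11:113650092-113650116, minus strand: agggaaggaGAGCGCAgcgaaccca
Slc39a11, chr11:113565940-113565964, minus strand: tcctggggtGTGTGCActgccctag
Slc39a13, chr2:91070283-91070307, minus strand: tgacgtggcTGCACGCcgggggtgg
Slc30a1, chr1:191906729-191906753, plus strand: gggggttccGAGTGCAaagcaaagt
Slc30a1, chr1:191906802-191906826, plus strand: ctccgggccGAGCGCAgtcgccgcg
Mt1, chr8:94179057-94179081, plus strand: gtcccgctgTGCACACtggcgctcc
Mt1, chr8:94179082-94179106, plus strand: agggagctcTGCACTCcgcccgaaa
Mt1, chr8:94179100-94179124, plus strand: cccgaaaagTGCGCTCggctctgcc

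Slc39a10 is the member on which the results below turn, and its table entries give a distal and a proximal start. Neither window held the core letters, which says only that these letters are not in them. The 100 bases before each start are given, with nothing in capitals since no core was found.
Slc39a10 start 1, chr1:46925777-46925876, minus strand: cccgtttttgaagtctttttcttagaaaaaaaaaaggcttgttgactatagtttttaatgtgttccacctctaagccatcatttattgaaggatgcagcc
Slc39a10 start 2, chr1:46853619-46853718, minus strand: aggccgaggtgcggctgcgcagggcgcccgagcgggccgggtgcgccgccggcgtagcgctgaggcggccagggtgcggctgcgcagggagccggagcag

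Levels of 1 gene across groups are given below as CPM, counts brought to a common library size by TMM, a method that sets the typical gene equal between libraries. The TMM factors were 1.26 to 1.27 in Ctrl, 1.21 in Cu-Cys and 0.640 to 0.665 in Cadict libraries, so a change in Cadict cells is relative to the typical gene and not to the library total. With library totals in place of TMM, the median log2 fold change over all tested genes shifted by -0.95 for Cadict against Ctrl, by -0.88 for Cadict against Cu-Cys and by -0.07 for Cu-Cys against Ctrl. Called genes had a fold change of 2 or more and an adjusted p up to 0.001, the threshold of the study.

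Copper-cystine raised Slc39a10 above every other ZIP gene in size of change. Slc39a10, a plasma membrane importer that pairs with Slc39a6, had 48.4, 46.0 and 48.2 CPM in the Ctrl libraries, 116.8, 131.3 and 123.5 CPM in the Cu-Cys libraries. All Cu-Cys libraries lay above all Ctrl libraries, and the TMM CPM was 2.61-fold higher (log2 fold change 1.38 ± 0.06 SE, adjusted p = 6.36e-10, edgeR quasi-likelihood F test, Benjamini-Hochberg). It was the only member called in this comparison, where 0.167% of the tested genes were called higher and 1.47% lower. Its log2 fold change was the 51st largest rise of 11949 genes.

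The partner of Slc39a10 moved the same way by less. Slc39a6, an importer linked to cell detachment and cell division, had 92.8, 89.5 and 92.0 CPM in Ctrl and 152.8, 156.2 and 159.6 CPM in Cu-Cys libraries, with no overlap. It was 1.71-fold higher in Cu-Cys cells (log2 fold change 0.77 ± 0.05 SE, adjusted p = 2.71e-08), below the fold required for a call, and its change was the 183rd largest rise.

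Among the other members, Slc39a4, Slc39a7, Slc39a11 and Slc39a14 also rose at a looser threshold, an adjusted p up to 0.05, which makes 6 of 10 members higher and 0 lower there, against 22.6% of all tested genes higher and 22.4% lower. No member was lower at an unadjusted p under 0.05 in edgeR either (0 of 10), nor at the looser threshold in DESeq2's Wald test (0), whereas 1 member, Slc39a3, was lower with library totals in edgeR, without Cadict replicate 2 and in limma on log2 TPM plus 1 (adjusted p = 0.0375, 0.0344 and 0.0267). Slc39a7 went from 147.1, 150.3 and 141.4 CPM in Ctrl to 191.6, 177.4 and 183.7 CPM in Cu-Cys libraries (log2 fold change 0.33 ± 0.06 SE, adjusted p = 0.000238). Slc39a11 rose by 0.28 ± 0.06 and Slc39a14 by 0.21 ± 0.05 on the log2 scale, with adjusted p = 0.00139 and 0.00237, so their changes were small although their groups did not overlap. On the log2 TPM scale neither passed, and Slc39a7 missed with a pseudocount of 0.1 (adjusted p = 0.0547). Slc39a4 had 13, 12 and 7 counts in Ctrl and 22, 19 and 20 counts in Cu-Cys libraries (log2 fold change 1.00 ± 0.30 SE, adjusted p = 0.0152). That call at the looser threshold was lost without Ctrl replicate 3 (adjusted p = 0.0742) and without Cu-Cys replicate 1 (adjusted p = 0.0529).

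Slc39a1, Slc39a3, Slc39a8 and Slc39a13 did not pass the looser threshold, with log2 fold changes of -0.09 ± 0.06, -0.17 ± 0.09, 0.08 ± 0.23 and 0.14 ± 0.06 (SE) and adjusted p = 0.269, 0.14, 0.81 and 0.0558. For Slc39a8, at 22 to 32 counts per library in these groups, the depth leaves room for a change of either sign. Over all 10 members the median log2 fold change was 0.24, beside 0.01 over all tested genes, and the libraries of 8 members did not overlap between the groups, beside 61.2% of all tested genes.

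**Figure D2:**
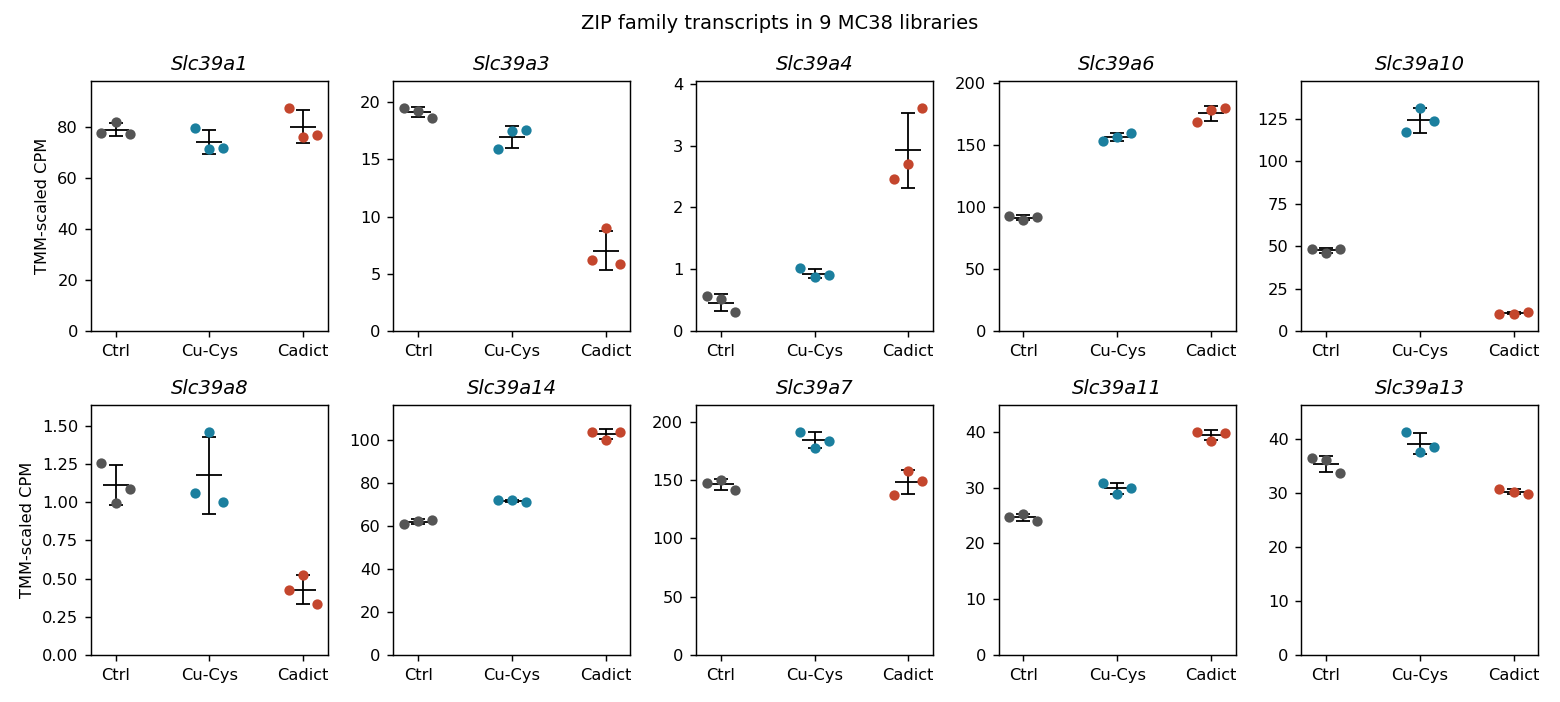
TMM-scaled CPM of the 10 ZIP genes in each of the 9 libraries (points), with the group mean and SD over 3 libraries (bars) and axes that start at 0. Slc39a10 is highest in Cu-Cys and lowest in Cadict libraries, whereas Slc39a6, Slc39a11 and Slc39a14 are highest in Cadict libraries on this scale, whereas with library totals Slc39a11 and Slc39a14 lie below Ctrl and Slc39a6 is level with it.

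With Cadict, Slc39a10 went the other way. Its counts were 1119, 1063 and 1106 in the Ctrl libraries and 121, 114 and 133 in the Cadict libraries, which is 10.3, 9.93 and 11.2 CPM after TMM scaling. Every Cadict library lay below every Ctrl library, and the TMM CPM was 4.54-fold lower (log2 fold change -2.18 ± 0.08 SE, adjusted p = 4.3e-13, edgeR quasi-likelihood F test, Benjamini-Hochberg). With library totals the log2 fold change was -3.14, so the direction did not depend on the scaling. In this comparison 20.7% of all tested genes were called higher and 27.1% lower, and Slc39a10 stood at the 1174th largest fall.

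Slc39a3 was the second member called lower. It had 451, 445 and 428 counts in Ctrl and 73, 103 and 70 counts in Cadict libraries (log2 fold change -1.45 ± 0.12 SE, adjusted p = 1.08e-08). Slc39a8 fell from 29, 23 and 25 counts to 5, 6 and 4 counts, again without overlap (log2 fold change -1.37 ± 0.34 SE, adjusted p = 0.00156), which misses the stricter threshold on p. These falls, like that of Slc39a10, were larger with library totals, at -2.40 for Slc39a3 and -2.31 for Slc39a8. Slc39a13 was lower by a small amount with TMM, from 36.4, 36.0 and 33.7 CPM to 30.7, 30.2 and 29.8 CPM (log2 fold change -0.23 ± 0.06 SE, adjusted p = 0.00395). Its counts before scaling were 842, 833 and 774 in Ctrl and 362, 347 and 355 in Cadict libraries. Over the settings that kept all 9 libraries its log2 fold change ran from -1.49 to -0.11, so the size depended on the scaling. With DESeq2 size factors its adjusted p was 0.129.

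Slc39a4 was the single member called higher, from a level close to the detection limit. It had 13, 12 and 7 counts in Ctrl and 29, 31 and 43 counts in Cadict libraries (log2 fold change 2.65 ± 0.27 SE, adjusted p = 1.43e-07), and its log2 fold change with library totals was 1.70. Even so its Cadict level was 1.24 TPM, below that of most other members. The carrier is known for zinc uptake in the small intestine, and its counts are too few to place the size of the change closely.

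Slc39a6, Slc39a14 and Slc39a11 were higher on the TMM scale, while with library totals Slc39a14 and Slc39a11 turned below 0 and Slc39a6 did not differ detectably from Ctrl. Slc39a6 had 168.5, 178.3 and 179.8 CPM in Cadict libraries, above all Ctrl libraries (log2 fold change 0.94 ± 0.05 SE with TMM, adjusted p = 3.11e-11, and -0.012 with library totals). Its counts before scaling were 2147, 2067 and 2110 in Ctrl and 1984, 2046 and 2142 in Cadict libraries, which overlap. Slc39a14, which takes up zinc, manganese and iron not bound to transferrin, had 60.6, 62.2 and 62.7 CPM in Ctrl and 103.8, 99.8 and 103.8 CPM in Cadict libraries (log2 fold change 0.73 ± 0.05 SE with TMM, adjusted p = 7.42e-10, and -0.22 with library totals). Slc39a11 had a log2 fold change of 0.68 ± 0.06 SE with TMM (adjusted p = 2.89e-08) and of -0.28 with library totals.

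Slc39a1 and Slc39a7, the pair with the highest TPM in Ctrl cells, moved with the typical gene. Slc39a1 had 77.6, 81.6 and 77.2 CPM in Ctrl and 87.3, 75.8 and 76.8 CPM in Cadict libraries, which overlap (log2 fold change 0.02 ± 0.07 SE with TMM, adjusted p = 0.767, and -0.93 with library totals). Slc39a7 likewise overlapped, with 137.4, 158.0 and 149.2 CPM in Cadict libraries (log2 fold change 0.02 ± 0.06 SE with TMM, adjusted p = 0.76, and -0.94 with library totals).

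At the looser threshold, 4 members were thus higher and 4 lower in Cadict cells on the TMM scale, beside 40.6% and 47.1% of all tested genes. The median log2 fold change of the members was 0.02, beside -0.13 over all tested genes. Libraries of 8 of the 10 members did not overlap, beside 87.5% of all tested genes. With library totals 1 member lay above 0 and 9 below, where the median log2 fold change over all tested genes was -1.08. The shares of members that moved thus lay near those of all genes, and the members differed from each other in direction and size.

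**Figure D3:**
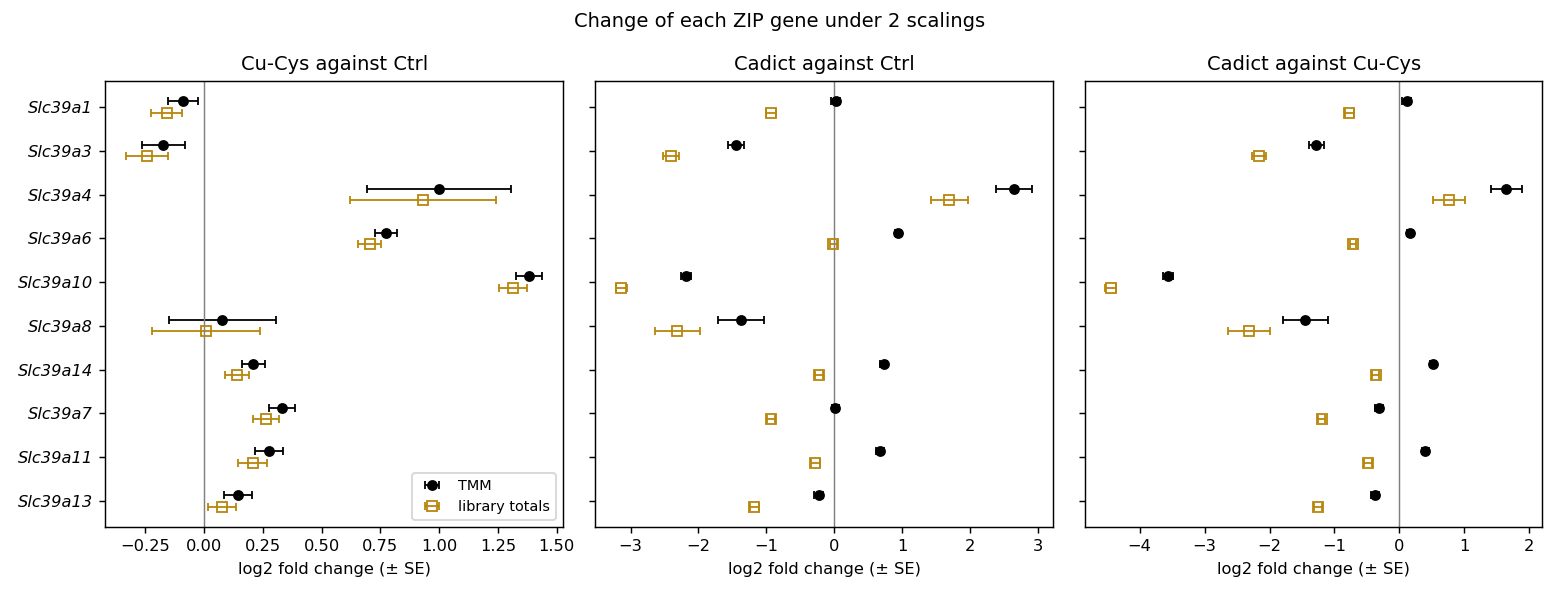
Log2 fold change with its SE for each ZIP gene in the 3 comparisons, with TMM scaling (filled circles) and with library totals (open squares). In the Cadict panels library totals move all 10 genes to the left. Against Ctrl, Slc39a11 and Slc39a14 change side, as do Slc39a1 and Slc39a7, which lie near 0 with TMM, and Slc39a6 comes to -0.012. Slc39a10, Slc39a3 and Slc39a8 stay below 0 and Slc39a4 stays above it.

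Cadict and Cu-Cys share copper and cystine and differ in glucose oxidase and GE11, and the widest gap between them within the family was in Slc39a10. Its levels were 116.8, 131.3 and 123.5 CPM with Cu-Cys and 10.3, 9.93 and 11.2 CPM with Cadict, an 11.8-fold lower TMM CPM (log2 fold change -3.56 ± 0.07 SE, adjusted p = 2.01e-15, edgeR quasi-likelihood F test, Benjamini-Hochberg). Slc39a10 had the 167th largest fall of 11949 genes. Slc39a3 was also called lower (log2 fold change -1.28 ± 0.12 SE, adjusted p = 7.11e-08) and Slc39a4 was called higher (1.65 ± 0.24 SE, adjusted p = 8.98e-06). Of all tested genes 18.6% were called higher and 23.6% lower.

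At the looser threshold 4 members were higher and 5 lower with Cadict than with Cu-Cys, beside 40.3% and 45.6% of all tested genes. Slc39a8 was lower with TMM (log2 fold change -1.45 ± 0.34 SE, adjusted p = 0.00101), as were Slc39a13 (-0.37 ± 0.06 SE, adjusted p = 5.81e-05) and Slc39a7 (-0.31 ± 0.06 SE, adjusted p = 9.4e-05). Before scaling, Slc39a13 had 822 to 897 counts in Cu-Cys and 347 to 362 in Cadict libraries, and Slc39a7 had 3881 to 4154 and 1618 to 1814. Over the settings that kept all 9 libraries, their log2 fold changes ran from -1.52 to -0.28 and from -1.44 to -0.22. Slc39a14 was higher by 0.52 ± 0.05, Slc39a11 by 0.40 ± 0.06 and Slc39a6 by 0.17 ± 0.05 (SE) on the TMM log2 scale, and all 3 turned below 0 with library totals (-0.37, -0.48 and -0.72). Slc39a1 did not pass (0.11 ± 0.07 SE, adjusted p = 0.128). Libraries of 9 members did not overlap, beside 85.0% of all tested genes.

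The makeup of the ZIP transcript pool, which no scaling between libraries can alter, differed by the largest ratio between groups for Slc39a10. Of the summed TPM of the 10 genes it took 5.06 ± 0.221% in Ctrl, 10.4 ± 0.794% in Cu-Cys and 0.783 ± 0.0529% in Cadict cells (SD, n = 3). The share of Slc39a6 was 13.4% in Ctrl, 17.7% in Cu-Cys and 22.2% in Cadict cells. The shares of the partners Slc39a6 and Slc39a10 thus parted in Cadict cells. A share also depends on the other members, and the TPM of Slc39a6 itself went from 54.9 in Ctrl to 42.8 in Cadict cells. In percentage points, the share of Slc39a6 moved by more than that of Slc39a10 between Ctrl and Cadict cells, and that of Slc39a1 by slightly more between Ctrl and Cu-Cys cells (20.3% in Ctrl, 14.8% in Cu-Cys and 17.8% in Cadict cells). Slc39a14 took 7.15%, 6.49% and 10.6%, and Slc39a3 took 2.96%, 2.03% and 0.945%. Slc39a7 remained first in every group at 37.1%, 36.1% and 33.3%. Slc39a10, which stood 7th in TPM in Ctrl cells, stood 4th in Cu-Cys cells at 49.8 TPM with no overlap with its neighbours. In Cadict cells it stood 8th at 1.51 TPM, where its libraries overlapped those of Slc39a4, and those of Slc39a3 overlapped its own. The summed TPM of the family was 411.1 ± 12.3 in Ctrl, 481.3 ± 11.9 in Cu-Cys and 192.5 ± 16.5 in Cadict cells, and its share of all counts was 0.0630 to 0.0648%, 0.0838 to 0.0848% and 0.0385 to 0.0399%. Both measures are fractions of a library and give no amount of RNA per cell. In such bulk samples, fewer cells with these transcripts and a smaller fraction of them in each cell cannot be told apart.

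The exporter gene Slc30a1 and the metallothionein genes Mt1 and Mt2 were higher with Cadict than in Ctrl cells by more than any ZIP gene with TMM scaling. On the log2 TPM scale their changes were no larger than the fall of Slc39a10. Slc30a1, the zinc exporter of the plasma membrane, had 5.92, 5.45 and 6.63 CPM in Ctrl, 14.8, 15.7 and 13.1 CPM in Cu-Cys and 114.2, 109.9 and 127.5 CPM in Cadict libraries. No group overlapped another, and both treatments were called higher than Ctrl (log2 fold change 1.28 ± 0.10 SE, adjusted p = 3.89e-07 with Cu-Cys, and 4.29 ± 0.09 SE, adjusted p = 1.43e-15 with Cadict). Of the 10 ZnT genes listed, 9 were in the table and 6 were tested, and Slc30a1 was the only one called. At the looser threshold 4 of the 6 were higher and 1 lower with Cadict on the TMM scale, beside 40.6% and 47.1% of all tested genes. With library totals 1 was higher and 5 lower. With Cu-Cys 2 were higher and 1 lower, beside 22.6% and 22.4% of all tested genes. Slc30a5, a ZnT carrier of the secretory pathway, was the one that was lower with Cadict (log2 fold change -0.41 ± 0.06 SE, adjusted p = 1.2e-05). Slc30a6, the carrier that works together with Slc30a5, was higher by 0.71 ± 0.08 with TMM but at -0.24 with library totals.

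The metallothionein gene Mt1 had 76.1, 80.3 and 72.1 CPM in Ctrl, 236.2, 235.9 and 241.0 CPM in Cu-Cys and 1181, 1562 and 1211 CPM in Cadict libraries. Mt2 followed it, with 68.7, 74.7 and 69.2 CPM, then 175.4, 174.4 and 170.0 CPM, then 1309, 1741 and 1376 CPM. Both were called higher in both treatments, with log2 fold changes of 1.64 ± 0.09 and 1.29 ± 0.09 with Cu-Cys and of 4.11 ± 0.10 and 4.38 ± 0.10 (SE) with Cadict. These genes therefore kept 1 order, Ctrl below Cu-Cys below Cadict, whereas Slc39a10 was above Ctrl with Cu-Cys and below it with Cadict. The transcript of Mtf1, the zinc sensor, was called higher with Cadict on the TMM scale (log2 fold change 1.13 ± 0.06 SE, adjusted p = 7.23e-11, and 0.18 with library totals) and not with Cu-Cys (0.11 ± 0.06 SE, adjusted p = 0.182).

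**Figure D4:**
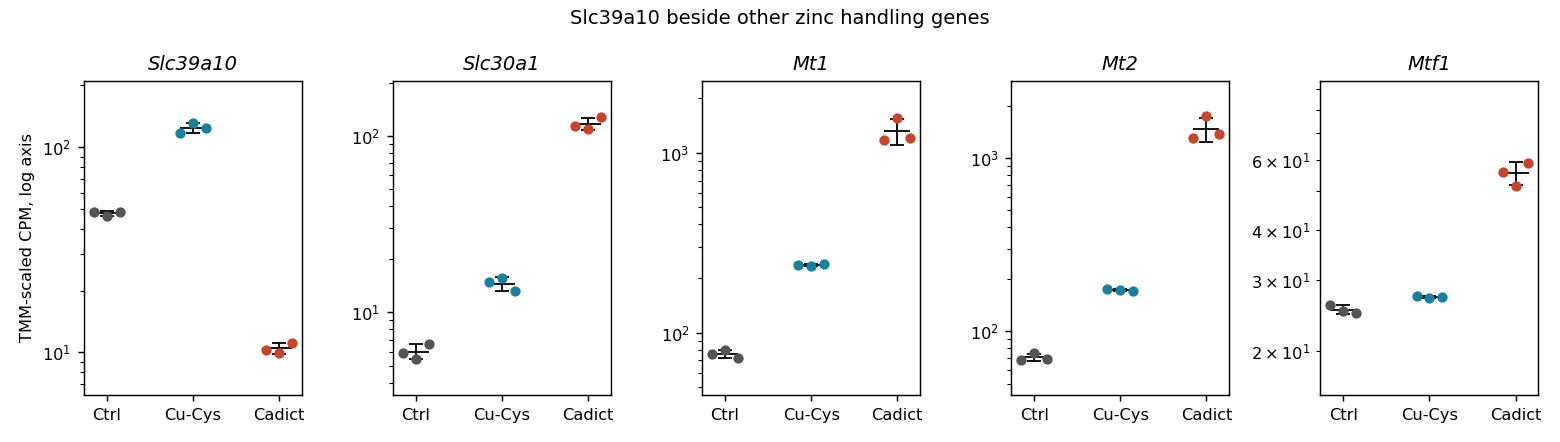
TMM-scaled CPM (log axes) of Slc39a10, the exporter gene Slc30a1, the metallothionein genes Mt1 and Mt2 and the sensor gene Mtf1 in each library (points), with the group mean and SD over 3 libraries (bars). Slc30a1, Mt1 and Mt2 lie lowest in Ctrl and highest in Cadict libraries, while Slc39a10 lies highest in Cu-Cys and lowest in Cadict libraries.

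Of the 4 remaining ZIP genes, Slc39a5 and Slc39a12 were not analysed here and Slc39a2 had at most 4 counts in any library and was not tested. Slc39a9, a carrier of the Golgi and plasma membrane, had 42.5, 41.3 and 41.1 CPM in Ctrl and 87.9, 74.2 and 94.9 CPM in Cadict libraries (log2 fold change 1.04 ± 0.07 SE with TMM, adjusted p = 1.73e-09, and 0.09 with library totals). With Cu-Cys it was at 42.9, 43.9 and 43.4 CPM (log2 fold change 0.06 ± 0.07 SE, adjusted p = 0.541).

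The copper and iron carriers gave the metal context of these changes. Of 8 listed genes 7 were tested. With Cadict 4 were higher and 3 lower at the looser threshold with TMM, beside 40.6% and 47.1% of all tested genes. With library totals 1 was higher and 5 lower. With Cu-Cys 3 were higher and 0 lower (0 lower in edgeR also at an unadjusted p under 0.05), beside 22.6% and 22.4% of all tested genes. Slc31a1, the main copper importer, was at 65.8 ± 1.78 CPM in Ctrl, 82.0 ± 0.843 in Cu-Cys and 74.7 ± 6.04 in Cadict cells (SD, n = 3), with log2 fold changes of 0.32 ± 0.06 (SE, adjusted p = 0.000449) for Cu-Cys and 0.18 ± 0.06 (SE, adjusted p = 0.00984) for Cadict against Ctrl, the latter turning to -0.77 with library totals. Tfrc, the transferrin receptor for iron uptake, shared the directions of Slc39a10, at 439.0 ± 8.19 CPM in Ctrl, 677.1 ± 18.5 in Cu-Cys and 280.8 ± 22.3 in Cadict cells (log2 fold change 0.63 ± 0.06 SE, adjusted p = 8.48e-07, and -0.64 ± 0.06 SE, adjusted p = 2.49e-08). Against Ctrl with Cadict, the copper pump gene Atp7a was called higher at a log2 fold change of 1.05 (0.097 with library totals) and the related pump gene Atp7b lower at -1.55, the latter from 48 to 60 counts in Ctrl libraries. Slc11a1, an iron and manganese carrier of phagosomes, was called higher at 3.11, from 6 to 7 counts in Ctrl libraries.

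The genes whose pattern came nearest to Slc39a10 over the 9 libraries were Nrn1, Adam19 and 2310061I04Rik, the first pair at Euclidean distances of 1.15 and 1.42 in log2(CPM + 0.5) after subtracting each gene's Ctrl mean. Nrn1 stood 0.76 above Ctrl with Cu-Cys and at -1.98 with Cadict on this scale, where Slc39a10 stood at 1.37 and -2.13. The pattern of Slc39a14 had closer neighbours, Cops7a, Acin1 and Yap1, at distances of 0.0875, 0.0925 and 0.0953.

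Read sharing and cell markers bear on individual values. In GENCODE M21, 74.5% of 50-base stretches of Slc39a7 transcripts also occur in transcripts of Gm20427, a transcript on the same strand. For Slc39a1, 21.8% occur in the pseudogene Slc39a1-ps. Reads from these stretches fit both transcripts by sequence. The expected counts of the members held 0 non-integer values, whereas Slc39a9 had 852.01 in Cadict replicate 2. The deposited counts thus show no fractional split for the members, and the origin of such reads was not tested. Slc39a13 shared 2.34% with Psmc3 on the opposite strand, and the other 7 members shared at most 0.447%. Slc30a1 shared 8.01% with its antisense gene 1700034H15Rik and Slc39a9 shared 3.98% with Erh on the opposite strand. Of 8 colon epithelial markers 7 were in the table. Their summed TMM level was 5.41 to 6.87 CPM in Ctrl, 3.97 to 4.43 in Cu-Cys and 24.1 to 26.2 in Cadict libraries. Epcam had 0 counts in Ctrl and Cu-Cys libraries. In every Ctrl library 4 of the 7 had no more than 3 counts, so most epithelial markers of the labelled tissue were near absent there. Cdh1 and Krt19 were present, at 99 to 120 and 19 to 33 counts in Ctrl libraries. Both were called higher with Cadict than in Ctrl cells, at log2 fold changes of 1.39 and 3.34 with TMM (0.44 and 2.39 with library totals). Summed leukocyte markers on the TMM scale were at 0.346 to 0.605 CPM in Ctrl, 0.228 to 0.277 in Cu-Cys and 0.588 to 1.05 in Cadict libraries. Before scaling, Lyz2, the highest of them in Ctrl cells, had 6 to 10 counts in Ctrl and 4 to 9 in Cadict libraries. With TMM, the 3 endothelial markers summed to 0.823 to 1.73 CPM in Ctrl and Cu-Cys libraries and to 2.09 to 3.61 CPM in Cadict libraries. Kdr had 12 to 15 counts in Cadict libraries beside 0 to 3 in Ctrl libraries, and Pecam1 had 10 to 15 beside 14 to 30. With library totals, the log2 fold change for Cadict against Ctrl was 2.97 for Kdr and -0.85 for Pecam1. The 5 fibroblast markers summed to 1045 to 1112 CPM in Ctrl, 542.5 to 556.3 in Cu-Cys and 200.8 to 220.2 in Cadict libraries. All 5 were lower than Ctrl in both treatments at the looser threshold, beside 22.4% of all tested genes with Cu-Cys and 47.1% with Cadict. The part of these shifts in the ZIP values was not tested.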

How the data were processed

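The authors deposited 1 table with an expected count, an FPKM and a TPM per gene and library, together with 9 columns of counts divided by size factors and 12 columns of group averages, none of which were used here. Expected counts deposited by the authors were not normalized, and TPM and FPKM deposited by the authors are scaled per length and per library. The submitters' processing notes name HISAT2 2.1.0, Bowtie2 2.3.4.3 and RSEM 1.3.1, and the builds GRCm39 and GRCh38.p13. RNA extraction and sequencing are described as TRIzol and Illumina in the study's methods, and as a column kit and DNA nanoballs in the labels. Columns CTL, CC and CCGE were read as Ctrl, Cu-Cys and Cadict, the last by inference.

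After rounding, expected counts went into edgeR 4.0.16 (R 4.3.3): filterByExpr with the group as design, TMM scaling, and 1 quasi-likelihood fit of the 3 groups over all 9 libraries. The Benjamini-Hochberg adjustment ran over 11949 genes. Calls needed a fold change of 2 or more with an adjusted p up to 0.001, beside a looser threshold of 0.05 on the adjusted p alone. All 10 members were named. Other genes came from lists of ZIP, ZnT, zinc-buffering, copper and iron genes and cell markers, written from general knowledge, with the called genes named and other genes given where they bear on a member. The members and lists were chosen with earlier results of these data known. A count of 0 allows up to 3 counts, 0.164 to 0.168 CPM of a library total, which covers counting error only. Alternatives were DESeq2 1.42.0 size factors and its Wald test, library totals, other filters, limma 3.58.1 on log2 TPM or FPKM plus a pseudocount of 1 or 0.1, a replicate block and leaving out each library. The procedure was tested on simulated data drawn from the Ctrl means, with as many rises as falls in a small set of genes. That simulation held no broad shift like the one in Cadict libraries, so it does not bear on the choice of scaling. Shared stretches were counted in GENCODE M21 on GRCm38, which is not the authors' build.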

Additional observations from a re-analysis of the deposited data

How the results depend on the processing

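The rise of Slc39a10 with Cu-Cys (log2 fold change 1.22 to 1.42), its fall with Cadict (-3.70 to -2.06), the falls of Slc39a3 and Slc39a8 with Cadict, the rise of Slc39a4 with Cadict and the rise of Slc39a6 with Cu-Cys (0.62 to 0.80) kept their direction and an adjusted p up to 0.05 under every alternative in which they were tested. Requiring 10 counts in every library removed Slc39a4 and Slc39a8. What moved most was the scale. With library totals, limma on log2 TPM plus 1, TPM plus 0.1 and FPKM plus 1, in that order, the log2 fold change for Cadict against Ctrl became -0.93, -1.26, -1.29 and -0.92 for Slc39a1, -0.012, -0.36, -0.36 and -0.018 for Slc39a6, -0.94, -1.25, -1.26 and -0.90 for Slc39a7, -0.28, -0.60, -0.63 and -0.27 for Slc39a11, and -0.22, -0.50, -0.52 and -0.17 for Slc39a14. For Cadict against Cu-Cys, in the same order, it became -0.77, -1.03, -1.05 and -0.76 for Slc39a1, -0.72, -0.98, -0.99 and -0.70 for Slc39a6, -0.48, -0.72, -0.76 and -0.46 for Slc39a11, and -0.37, -0.59, -0.61 and -0.32 for Slc39a14. These scales set the total and not the typical gene equal between libraries, and which of them is nearer to RNA per cell was not tested. For Slc39a8, Cu-Cys against Ctrl became -0.062, -0.13 and -0.018 on the TPM and FPKM scales. With at least 10 counts in every library and with no filter, Cadict against Ctrl became -0.041 and -0.059 for Slc39a1 and -0.043 and -0.062 for Slc39a7. Leaving out a library gave -0.047 to 0.057 for Slc39a1, turning without Cadict replicate 1, and -0.030 to 0.070 for Slc39a7, turning without Ctrl replicate 3 (-0.011) or Cadict replicate 2. For Slc39a8 in Cu-Cys against Ctrl it gave -0.11 to 0.18, turning without Cu-Cys replicate 2. These values lie near 0 and none passed in the TMM fit.

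Members called higher in Cadict against Ctrl numbered 1, and became 2 with DESeq2 size factors and with its Wald test. They became 0 with at least 10 counts, TPM plus 1 and FPKM plus 1, and 4 at the looser threshold on p alone. Of all tested genes 20.7% were called higher, and under these settings, in that order, 23%, 22.8%, 19.6%, 3.26%, 5.13% and 40.6%. Those called lower numbered 2, and became 4 with library totals, 5 with TPM plus 1, 6 with TPM plus 0.1 and 4 at the looser threshold. The share of all tested genes called lower rose as well, from 27.1% to 51.5%, 54.2%, 60.3% and 47.1% in that order. In Cu-Cys against Ctrl, 1 called higher became 6 at the looser threshold, beside 0.167% and 22.6% of all tested genes. In Cadict against Cu-Cys, 1 called higher became 0 with library totals, at least 10 counts, TPM plus 1, TPM plus 0.1 and FPKM plus 1. It became 4 at the looser threshold. Of all tested genes 18.6% were called higher, and in that order 5.76%, 17.8%, 3%, 3.9%, 3.95% and 40.3%. The 2 called lower became 5, 5, 6 and 4 with library totals, TPM plus 1, TPM plus 0.1 and FPKM plus 1, and 5 at the looser threshold. Of all tested genes 23.6% were called lower, and in that order 47.7%, 48.4%, 55.5%, 37.7% and 45.6%. On the TPM scale the rises of Slc39a11 and Slc39a14 with Cu-Cys were lost (adjusted p = 0.305 to 0.461), as were that of Slc39a7 with TPM plus 0.1 (0.0547) and that of Slc39a4 in Cadict against Cu-Cys (0.0743 and 0.14). DESeq2's Wald test left 5 members higher with Cu-Cys, without Slc39a4 (adjusted p = 0.0533). Slc39a13 passed the looser threshold in Cu-Cys against Ctrl without Cu-Cys replicate 2, Cadict replicate 2 or Cadict replicate 3 (adjusted p = 0.0482, 0.0255 and 0.046), Slc39a3 without Cadict replicate 2 (0.0344), and Slc39a1 in Cadict against Cu-Cys without Cu-Cys replicate 1 (0.042) or Cadict replicate 2 (0.0315). Deviations of same-numbered libraries correlated at -0.132 to 0.147 over 9836 genes, so the numbers were not treated as pairs, and with the number as a replicate block the log2 fold change of Slc39a10 was 1.38 with Cu-Cys and -2.18 with Cadict and no member call changed.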
